A study of Mus musculus with 2 samples.

Results

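The mitochondrial respiratory chain is built mostly from proteins encoded in the nucleus, and the transcripts of these genes were followed here through the cell classes of murine back skin and preputial gland (PG). Genes were taken by symbol from the deposited feature lists: those beginning with Nduf, Uqcr, Atp5 or Cox4 to Cox8, and Sdha, Sdhb, Sdhc and Sdhd, without symbols ending in -ps. This gave 93 of the 32285 genes listed. They comprise 36 genes of complex I, 4 of complex II, 8 of complex III, 20 of complex IV, 17 of complex V and 8 assembly factors of complex I. Of the 93 genes, 92 had at least 1 unique molecular identifier (UMI, a tag that counts each captured mRNA once) in skin cells and 91 in PG cells. Cox7b2 had none in either tissue, and Cox8c had a single UMI, in skin.

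Both tissues came from 3 male wild-type C57BL/6 mice aged 52 weeks, with no treatment. Skin biopsies were pooled into 1 sample and whole preputial glands, sebaceous-like glands of male rodents, into another. Each pool gave 1 droplet-based library, made with a 3′ kit according to the labels. The study set the lipid-producing sebocytes of the 2 tissues side by side. With 1 library per tissue there were no replicates, so no test and no p-value is given. Intervals in brackets are 95% intervals for counting error only, exact Poisson for levels and exact binomial for shares and ratios, and do not cover the spread between mice. A difference between tissues cannot be told apart from a difference between libraries.

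Complexes I to IV pass electrons from NADH and succinate to oxygen and, except for complex II, pump protons across the inner membrane, and complex V, the ATP synthase, uses the gradient to make ATP. Complex I oxidises NADH, complex II is succinate dehydrogenase of the citric acid cycle, complex III hands electrons to cytochrome c, and complex IV (cytochrome c oxidase) reduces oxygen. Several subunits of complexes IV and V exist as paralogs used in different tissues, such as the heart and skeletal muscle forms Cox6a2, Cox7a1 and Cox8b. Sebocytes need ATP, acetyl groups and reducing power for lipid synthesis and lose their organelles when they burst at the end of differentiation.

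After removal of barcodes with fewer than 500 genes, fewer than 1000 UMIs or more than 10% of UMIs from mitochondrially encoded (mt-) genes, 8899 cells with 27407186 UMIs remained in skin and 4699 cells with 15270076 UMIs in PG. The median cell held 2386 UMIs in skin and 2729 in PG. No kept barcode occurred in both libraries. The barcode lists had different lengths, 6794880 entries in skin and 737280 in PG, although the labels name 1 kit for both. Lists of these lengths are known from different versions of the droplet chemistry, so chemistry, library and tissue cannot be told apart. Cells were assigned to classes by markers that include no gene of the 93, and the names below mean that a cell carried those markers, as in "sebocyte-like". Ungated cells made up 16.2% of skin and 19.0% of PG cells.

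The gating markers were summed in the sebocyte-like classes, which describes the gate and does not test the labels. The 537 sebocyte-like cells of PG carried the 11 sebocyte markers at a summed 14058 counts per 1000000 UMIs (CPM), with Awat1 at 0, against 237 CPM for the 7 suprabasal and 3.78 CPM for the 9 hair matrix markers. The 60 sebocyte-like cells of skin were less clean. Their sebocyte markers summed to 6489 CPM, suprabasal markers to 6840 CPM and hair matrix markers to 3507 CPM, and 34 of the 60 cells only just met the minimum of 3 sebocyte markers, against 266 of 537 in PG. The part of these other markers in the skin values was not tested. Levels are relative to all UMIs of a class, so more chain transcripts per cell and less of other RNA cannot be told apart.

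The summed level of the 93 genes differed widely between the skin classes and was highest in muscle-like and sebocyte-like cells. Skeletal muscle-like cells of the skin sample held 87660.1 CPM [86220.8, 89117.4] over 59 cells. Sebocyte-like cells followed with 43829 CPM [43109, 44558], then 20 melanocyte-like cells with 41744 CPM and 19 smooth muscle or pericyte-like cells with 39715 CPM. The intervals of neighbours in this group of 3 overlapped. Hair matrix-like cells (674) held 35983 CPM [35769, 36197]. Upper follicle keratinocytes (28225 CPM), basal keratinocytes (26896 CPM [26799, 26994], 3770 cells) and T cells (25517 CPM) came next, and macrophages or dendritic cells, suprabasal keratinocytes and endothelial cells lay within overlapping intervals at 23501, 23264 and 23123 CPM. Fibroblasts were lowest at 20383 CPM [20180, 20587].

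In PG the epithelium stood above the stroma. Sebocyte-like cells held 57397.5 CPM [57134, 57662], the highest level of any PG class, and upper follicle or duct keratinocytes 50835.5 CPM (429 cells). Suprabasal and basal keratinocytes, at 43634 and 42320.5 CPM, had overlapping intervals. T cells (11 cells) and smooth muscle or pericyte-like cells (17 cells) lay at 34729 and 34495 CPM, also overlapping. Macrophages or dendritic cells, endothelial cells and fibroblasts overlapped at 24439, 23979 and 23623 CPM, close to the levels of the same classes in skin. Free RNA, taken from barcodes with at most 50 UMIs, held 27332 CPM of these transcripts in skin and 31310 CPM in PG, so part of every low value may be background and its part was not tested.

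**Figure D1:**
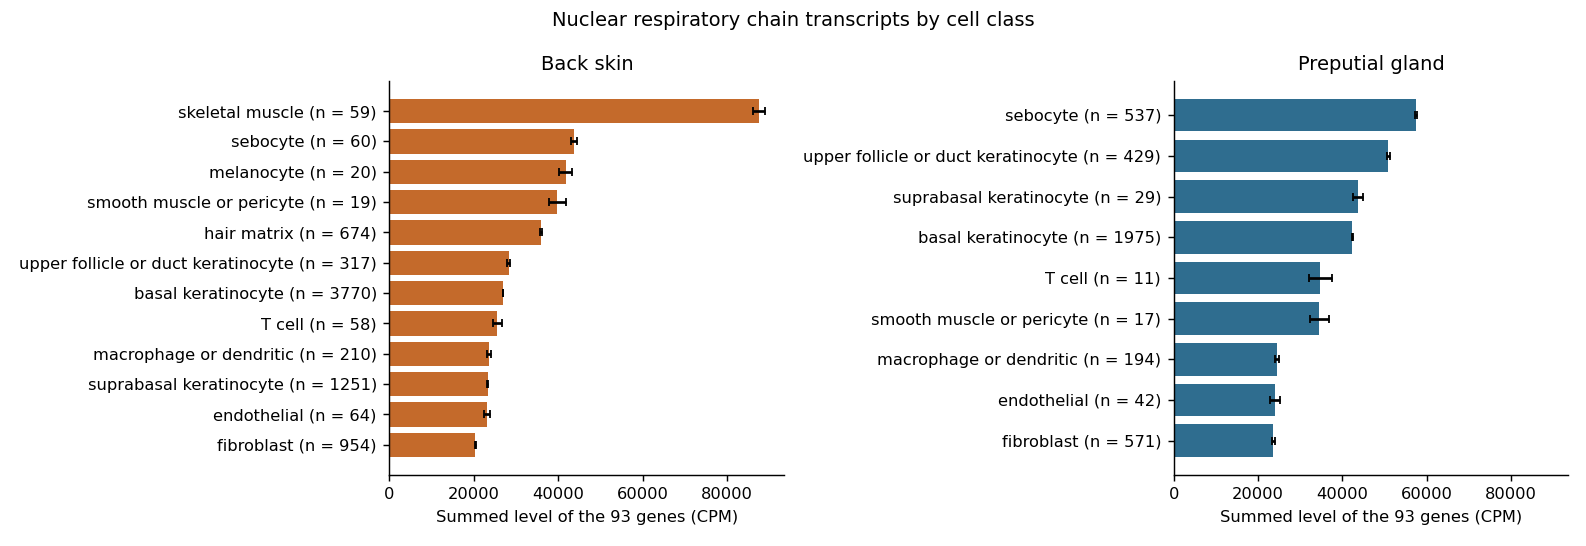
Summed level of the 93 genes in CPM (horizontal axis) in each cell class of back skin and preputial gland. Bars are levels over all cells of a class, lines are exact 95% Poisson intervals and n is the number of cells. Skeletal muscle-like cells (87660.1 CPM) and PG sebocyte-like cells (57397.5 CPM) lead their libraries, and fibroblasts are lowest in both.

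Cell by cell, the order of the main classes was kept, but that of several others was not. In skin the median share of a cell's UMIs held by the 93 genes was 2.62% in basal keratinocytes (interquartile range 2.10 to 3.17%), 3.41% in hair matrix-like cells, 3.86% in sebocyte-like cells and 8.89% in skeletal muscle-like cells. In PG it was 4.06% in basal keratinocytes (3.49 to 4.70%), 5.05% in upper follicle or duct keratinocytes and 5.61% in sebocyte-like cells (4.80 to 6.42%). The middle ranges of sebocyte-like and basal cells did not overlap in either library. Fibroblasts had a median of 1.92% in skin and 2.13% in PG. Unlike in the summed levels, skin melanocyte-like (3.97%) and smooth muscle or pericyte-like cells (3.97%) lay above sebocyte-like cells. Upper follicle keratinocytes of skin (2.53%) lay below basal cells, and PG macrophages or dendritic cells (2.08%) below fibroblasts. Depth moved with class: the median UMI count per cell was 4648.5 in skin and 5717 in PG sebocyte-like cells, against 2468 and 2829 in basal keratinocytes, and its part was not tested.

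The makeup by complex was similar between basal, sebocyte-like and muscle-like cells of 1 library. In skin basal keratinocytes complex I held 29.0% of the UMIs of the 93 genes, complex II 0.847%, complex III 11.4%, complex IV 28.4%, complex V 29.5% and the assembly factors 0.838%. Skin sebocyte-like cells had 29.1%, 0.976%, 11.0%, 28.7% and 29.4% for complexes I to V, and skeletal muscle-like cells 28.9%, 0.927%, 11.8%, 26.7% and 31.0%. PG cells held relatively more of complexes II and V, and the share of complex II in basal cells differed more between the tissues than the summed level did. In PG basal keratinocytes the shares of complexes I to V were 26.4%, 1.498%, 9.84%, 30.3% and 31.4%, and in PG sebocyte-like cells 27.7%, 1.35%, 9.64%, 28.6% and 32.2%.

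Single genes differed widely in level. Each UMI marks 1 captured molecule, so these levels were not divided by length, but capture differs between genes. That capture was at the 3′ end rests on the kit named in the labels and was not tested. In complex IV, Cox4i1, the ubiquitous form of subunit 4, had 1050 CPM over all skin cells and 2828 CPM over all PG cells, and Cox8a 954 and 2292 CPM. Over all skin cells Cox6c ranked between Cox4i1 and Cox8a. Complex V was led in skin by the small subunits Atp5e (1028 CPM), Atp5l (805 CPM) and Atp5h (750.2 CPM) and in PG by Atp5g3 (2276 CPM), Atp5g2 (1181 CPM) and Atp5l (1170 CPM). The highest of complex III was Uqcrh, the hinge protein, with 786 CPM in skin and 1154 CPM in PG. Ndufb9 led complex I with 555 and 786 CPM. The complex II genes were low throughout, with Sdhb, the iron-sulfur subunit, highest at 115 CPM in skin and 198 CPM in PG. Among the assembly factors Ndufaf8 led with 82.5 and 74.1 CPM.

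Sebocytes were set against the basal keratinocytes of their own tissue, a comparison inside 1 library. The study itself compared the sebocytes of the 2 tissues with each other. A gene was counted as higher or lower when its ratio of CPM was above 1.5 or under 0.6, among genes with a mean of at least 20 CPM over the 2 classes. In PG the 93 genes together were 1.36-fold higher in sebocyte-like cells (log2 ratio 0.44 [0.43, 0.45]). Of the 84 genes measured at that level 78 had a log2 ratio above 0, 28 were above 1.5-fold and 1 was under 0.6-fold, where 18.1% of all 5246 genes tested were above and 16.4% under. The median log2 ratio was 0.48 for the 84 genes and −0.06 for all genes tested.

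Complexes I and III contributed most of the genes past 1.5-fold in PG sebocyte-like cells. In complex I these were 16 of 36 genes, with none under 0.6-fold. Ndufb8, an accessory subunit of the membrane arm, had 902 CPM [log2 ratio 0.99, 0.92 to 1.07] against 454 CPM in basal cells, and Ndufa10 371 against 190 CPM (0.97). Of the 7 core subunits that carry the flavin and iron-sulfur centres 5 passed, with a median log2 ratio of 0.77. In complex III 5 of 8 genes passed: Uqcrc2, Uqcr10, Uqcr11, Uqcrq and Uqcrb, all between log2 ratios of 0.61 and 0.65. None of the 4 complex II genes did. In complex IV only Cox7b (907 against 547 CPM) and Cox6b1 (1050 against 679 CPM) were above 1.5-fold among 13 genes measured, and Ndufa4l2 was under 0.6-fold. In complex V 4 of 17 passed: Atp5g1, with the largest ratio of all (1761 against 779 CPM, log2 ratio 1.18 [1.12, 1.23]), Atp5c1 (0.84), Atp5g3 (0.69) and Atp5d (0.61). One assembly factor of 6 passed, Ndufaf3 (68.9 against 35.5 CPM). At the low end, apart from Ndufa4l2, the values were near equality: Ndufaf8 66.7 against 77.7 CPM (−0.22 [−0.46, 0.02]), Ndufaf2 27.1 against 31.2 CPM (−0.20 [−0.59, 0.17]) and Uqcrh 1110 against 1238 CPM (−0.16 [−0.22, −0.10]).

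In skin the same ratio was larger, on far fewer cells. The sum was 1.63-fold higher in sebocyte-like than in basal cells (log2 ratio 0.70 [0.68, 0.73]). Of 83 genes measured 79 had a log2 ratio above 0, 57 were above 1.5-fold and 1, again Ndufa4l2, was under 0.6-fold, where 26.6% of all genes tested were above and 14.1% under. The medians were 0.75 for the 83 genes and 0.16 for all genes. All 7 core subunits of complex I were above 1.5-fold, as were 23 of 36 complex I genes, 10 of 13 in complex IV and 14 of 17 in complex V. In complex II Sdhb (220 against 93.5 CPM), Sdha and Sdhd passed, and in complex III Uqcrq (828 against 322 CPM, log2 ratio 1.36 [1.18, 1.54]), Uqcrfs1, Uqcr10, Uqcrc2 and Uqcr11.

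The genes with the largest ratios in skin rested on few UMIs. Ndufs1, the largest core subunit, had 83.7 against 28.3 CPM (log2 ratio 1.57 [0.94, 2.13]) on 27 UMIs in sebocyte-like cells. The assembly factors Ndufaf1 (31.0 against 10.5 CPM, 10 UMIs) and Ndufaf4 (80.6 against 28.3 CPM, 26 UMIs) followed, and they were the 2 of 5 assembly factors that passed. At the low end Cox7a2l, a supercomplex factor, had 248 against 286 CPM (−0.21 [−0.55, 0.11]) and Uqcrc1, a core protein of complex III, 152 against 168 CPM (−0.14 [−0.58, 0.27]). Ndufaf8 had 77.5 against 79.97 CPM (−0.05 [−0.68, 0.53]). These 3 intervals all include 0. Asking for 1 more sebocyte marker left 26 cells and raised the summed log2 ratio to 1.01.

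Side by side, 83 genes were measured in both sebocyte comparisons. They were higher in sebocyte-like cells of both tissues for 75 genes, with both intervals above 0 for 68. Ndufa4l2 and Ndufaf8 were lower in both, the latter with intervals that include 0. Uqcrh was the 1 gene whose intervals lay on opposite sides of 0, at a log2 ratio of 0.29 [0.13, 0.45] in skin and −0.16 [−0.22, −0.10] in PG.

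**Figure D2:**
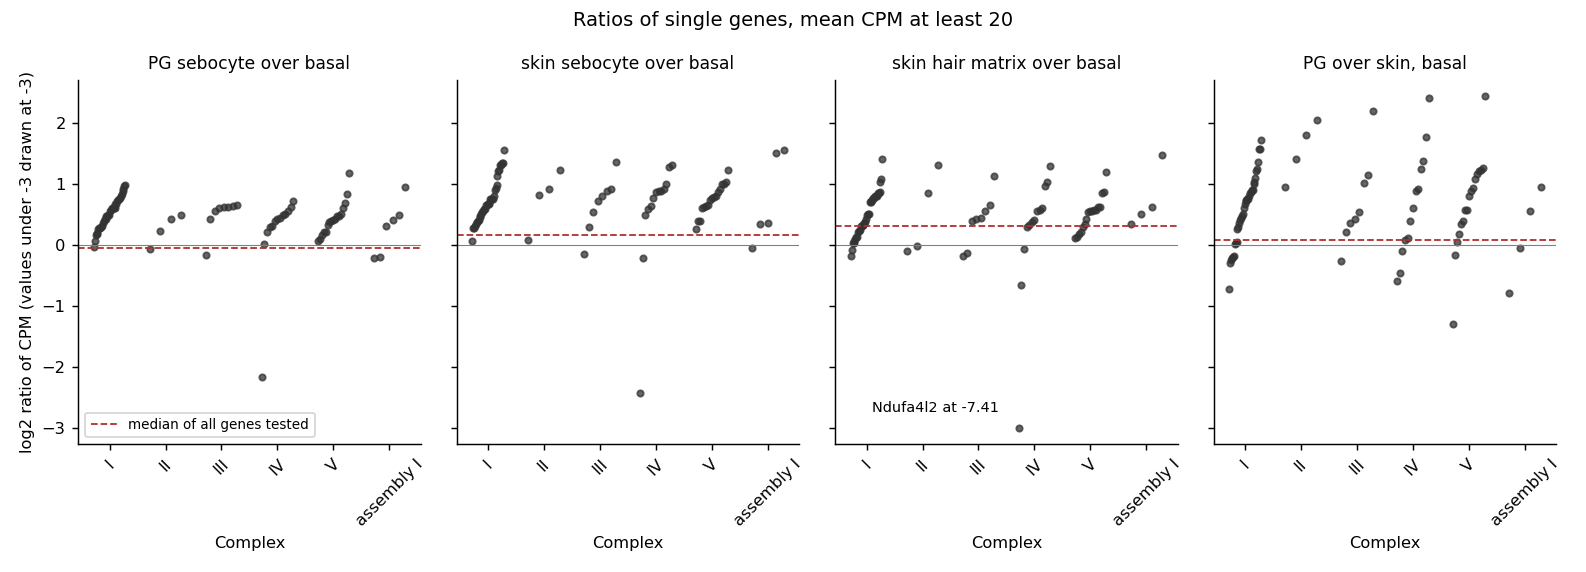
Log2 ratio of CPM (vertical axis) for each gene with a mean of at least 20 CPM, by complex (horizontal axis), in 4 comparisons. Each point is 1 gene, sorted within its complex, and the dashed line is the median of all genes tested. Most points lie above that line, and the isolated low point in complex IV of the 3 panels within a tissue is Ndufa4l2, drawn at −3 for hair matrix-like cells, where its value was −7.41.

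Sebocytes were divided by markers of early and late differentiation. In PG the sum was 51606 CPM in 82 early, 57928 CPM in 303 intermediate and 59100.0 CPM in 152 late sebocyte-like cells. Late over early gave a log2 ratio of 0.20 [0.17, 0.22]. Of 86 genes measured 8 were above 1.5-fold and 2 under 0.6-fold, where 15.2% of all genes tested were above and 17.5% under. Both shares were thus below those of all genes. The 8 were 6 complex I genes, led by Ndufb8 (1155 against 696 CPM), and the assembly factors Ndufaf3 and Ndufaf2. The latter 2 rested on few UMIs, 95 against 20 for Ndufaf3 (log2 ratio 1.07 [0.36, 1.84]) and 36 against 9 for Ndufaf2 (0.82 [−0.26, 2.06]). The 2 lower genes were Ndufa4l2 (75.9 against 239 CPM, log2 ratio −1.66) and Ndufaf6 (−0.74). Ndufaf6 also rested on few UMIs, with 85 over all 537 PG sebocyte-like cells. In skin, 18 early, 21 intermediate and 21 late sebocyte-like cells held 36246, 37424 and 54411 CPM. Median mt- shares moved with the late stage, at 4.35% in skin and 4.58% in PG late cells against 2.67% and 3.20% in early cells.

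Hair matrix-like cells, the proliferating cells that build the hair shaft and its inner sheath, are a skin class outside the sebaceous lineage. Their sum was 1.34-fold that of basal cells (log2 ratio 0.42 [0.41, 0.43]). Of 82 genes measured 30 were above 1.5-fold and 1 under 0.6-fold. That share was close to the background, since 34.3% of all genes tested were above and 16.1% under, and the median log2 ratio was 0.50 for the 82 genes and 0.32 for all genes. The 15 complex I genes that passed were led by Ndufb7 (344 against 129 CPM, log2 ratio 1.41 [1.30, 1.53]). In the other complexes the genes that passed were Sdhb (232 against 93.5 CPM, 1.31) and Sdha, Uqcrq and Uqcr10, and in complex IV Ndufa4 (929 against 376 CPM, 1.31), Cox5a, Cox6a1 and Cox5b. In complex V they were Atp5mpl, Atp5md, Atp5b, Atp5k and Atp5j, and among the assembly factors Ndufaf4 (78.9 against 28.3 CPM, the largest ratio at 1.48) and Ndufaf2. Lower values were found for Cox7a2l (181 against 286 CPM, −0.66), Ndufb11 (383 against 436 CPM, −0.19) and Uqcrh (756 against 853 CPM, −0.17).

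Skeletal muscle-like cells gave the largest ratios to basal cells, with a sum 3.26-fold higher (log2 ratio 1.70 [1.68, 1.73]). Of 86 genes 73 were above 1.5-fold and 2, Ndufa4l2 and Cox6a1, under 0.6-fold, where 23.1% of all genes tested were above and 47.1% under. Transcripts of the 13 mt- genes of the chain went the other way, at 10340 CPM against 22603 CPM in basal cells, so the nuclear genes held 8.48 times the mt- UMIs. That ratio lay between 0.957 and 1.40 in the other skin classes and between 0.673 and 1.72 in the PG classes. The median mt- share of the muscle-like cells was 0.518%. The limit of 10% mt- UMIs per barcode kept 59 muscle-like cells, and a limit of 20% kept the same number.

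The muscle-like cells were also the place of the heart and skeletal muscle forms of complex IV. Cox6a2 supplied 420 of the 424 UMIs of Cox6a1 and Cox6a2, or 99.1% [97.6, 99.7], at 2605 CPM, while Cox6a1 had 4 UMIs. Cox8b supplied 249 of 340 UMIs of the Cox8 genes (73.2% [68.2, 77.9]) at 1544 CPM, and Cox7a1 96 of 292 UMIs of Cox7a1 and Cox7a2 (32.9% [27.5, 38.6]) at 595 CPM. The replacement was therefore nearly complete for subunit 6a and partial for subunits 8 and 7a in these UMIs. A UMI of Cox6a2 was found in 83.1% of muscle-like cells (79.7% after thinning every cell to 1000 UMIs) and in 0.716% of basal keratinocytes (0.265% after thinning), a class that should lack it, at median depths of 2046 and 2468 UMIs.

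Outside muscle these forms were at or below the free RNA level in skin. Free RNA of skin held 94.5 CPM of Cox6a2, 63.3 CPM of Cox8b and 18.7 CPM of Cox7a1, while basal keratinocytes held 2.47, 1.19 and 0.824 CPM. Skin sebocyte-like cells had 0 UMIs of all 3, which for Cox6a2 allows up to 2.91% of 103 UMIs of subunit 6a. PG sebocyte-like cells likewise had 0 of 4013 UMIs for Cox6a2, which allows up to 0.0748%. They did hold 97 UMIs of Cox8b, 30.5 CPM [24.8, 37.2], against 3.65 CPM [2.29, 5.53] in PG basal keratinocytes and 20.8 CPM in PG free RNA. Cox8b still made up only 1.14% of the subunit 8 UMIs there. Cox7a1 had 26 UMIs, 8.18 CPM [5.35, 12.0], against 0.664 CPM in basal cells and 3.55 CPM in free RNA. The 7 skeletal muscle markers summed to 6.30 CPM in these sebocyte-like cells, with Ckm, Tnnt3 and Pvalb at 0. At the depth of 1000 UMIs a UMI of Cox8b was left in 2.05% of PG sebocyte-like and 0.253% of PG basal cells, against 13.2% and 0.962% before thinning, at median depths of 5717 and 2829 UMIs.

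Cox4i2, the form of subunit 4 linked with low oxygen in lung, had its highest levels in classes of the vessel wall, on few UMIs. It reached 153 CPM (6 UMIs) in smooth muscle or pericyte-like cells of skin, 311 CPM (8 UMIs) in those of PG and 97.4 CPM (7 UMIs) in PG endothelial cells, but had 0 UMIs in skin endothelial cells. Other classes held at most 9.11 CPM in PG and 6.20 CPM in skin. The most UMIs, 35, lay in PG basal keratinocytes, at 5.81 CPM. The counts are too few for an order among these 3 classes. The testis form Cox6b2 stayed at 5.76 CPM over all skin cells and 7.33 CPM over all PG cells.

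The gene that departed most from the rest was Ndufa4l2. Its paralog Ndufa4, first assigned to complex I and now counted with complex IV, was set against it in every class. In skin basal keratinocytes Ndufa4l2 had 621 CPM [606, 636] and Ndufa4 376 CPM, so that Ndufa4l2 supplied 62.3% [61.4, 63.2] of the UMIs of the 2 genes. The share was 41.4% in suprabasal keratinocytes (525 CPM), 14.9% in upper follicle keratinocytes (88.0 CPM) and 0.391% [0.195, 0.698] in hair matrix-like cells, where 11 UMIs remained against 2805 of Ndufa4. Hair matrix cells defined by clusters (1079) had 1.14% [0.838, 1.51] in place of 0.391%. The log2 ratio of hair matrix-like to basal cells was −7.41 [−8.41, −6.57], the lowest of the 93 genes. Free RNA of skin held 181 CPM (23.1%), and hair matrix-like cells lay below it. This value is the makeup of free RNA and not the amount that it adds to a cell. That amount was not measured, so the part of background in classes at or under this level was not tested.

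In PG basal keratinocytes Ndufa4l2 supplied 37.2% [36.1, 38.4] at 413 CPM. It was above Ndufa4 in the upper follicle or duct keratinocytes, with 67.6% [65.8, 69.5] at 929 CPM, and in 29 suprabasal keratinocytes, with 78.7% at 1348 CPM. Upper follicle keratinocytes thus lay below basal cells in skin and above them in PG. Smooth muscle or pericyte-like cells had high shares in both tissues, 60.9% on 28 UMIs in skin and 52.9% on 18 UMIs in PG. T cells of both tissues and skin melanocytes had 0 UMIs. The 11 PG T cells held only 17104 UMIs of all genes, so their 0 sets no low limit. A PG cluster of 32 cells named T cell had 75.5 CPM (12.9%). PG free RNA held 168 CPM (25.1%).

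Sebocyte-like cells were low in Ndufa4l2 in both tissues, at 91.9 CPM (8.88% [7.93, 9.91]) in PG and 115 CPM (11.1% [7.94, 14.99]) in skin, each under the free RNA level of its library. Early cells were above that level, at 239 CPM in PG and 241 CPM in skin, as was 1 of 3 sebocyte clusters of PG, with 459 CPM in 22 cells. In PG the share was 21.7% in early, 6.19% in intermediate and 7.07% in late sebocyte-like cells. The skin value came from few cells: 37 UMIs lay in 4 of the 60 cells, and a cluster of 55 sebocyte-like cells made without the 93 genes gave 0.457% in place of 11.1%.

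Between clusters named as keratinocytes the level of Ndufa4l2 was spread more widely than the sum of the chain or Ndufa4. Clusters were made without the 93 genes and the mt- genes. Each was named by the most common class of its gated cells, where at least 25% of its cells were gated. Across the 9 PG clusters named basal, Ndufa4l2 ranged from 0 to 1533 CPM and from 0% to 83.4% of the UMIs of the pair, whereas the sum of the 93 genes stayed between 39252 and 45135 CPM. Across 13 skin clusters named basal it ranged from 0 to 1094 CPM and from 0% to 80.8%, with the sum between 20625 and 32763 CPM. Ndufa4 ranged from 304 to 944 CPM in the PG and from 212 to 921 CPM in the skin clusters. Some of these names rested on few gated cells. The skin cluster with 0 CPM of Ndufa4l2 had 26 cells, 38.5% of them gated. The skin cluster with 921 CPM of Ndufa4 was 39.7% gated, and 48% of its gated cells were basal. In PG a cluster with 2.53 CPM of Ndufa4l2 was 88.6% gated, and 96.1% of these cells were basal. Glycolysis genes, the enzymes from hexokinase to lactate dehydrogenase, went with it in PG: the basal cluster with 1533 CPM of Ndufa4l2 held 7783 CPM of them, that with 667 CPM held 4739 CPM and that with 0 held 2361 CPM. In the 3 upper follicle or duct clusters of PG, Ndufa4l2 at 1941, 929 and 538 CPM stood beside 9382, 7328 and 5348 CPM. Of the gated cells in these clusters 56.4%, 97.7% and 59.4%, in the same order, were of the class that names them. In skin the basal cluster with 1094 CPM held 2558 CPM of glycolysis genes, but the highest value, 2831 CPM, was in a cluster with 463 CPM.

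Genes known to respond to low oxygen were then read in the same clusters, chosen after the pattern was seen. In PG, Egln3, a prolyl hydroxylase that acts on hypoxia-inducible factors, had 421 CPM in the basal cluster highest in Ndufa4l2 and 10.9 CPM in the lowest, Bnip3 262 and 3.65 CPM, and Fam162a 1572 and 186 CPM. In skin Egln3 did not follow, with 26.2 CPM at the highest Ndufa4l2 level and 72.6 CPM, its highest value, in a cluster with 141 CPM of Ndufa4l2. Fam162a had 431 and 126 CPM and Bnip3 73.7 and 15.8 CPM in the skin clusters at the ends of the range, the lower of which had 26 cells. Both genes were highest elsewhere, at 454 and 94.1 CPM in a skin cluster with 463 CPM of Ndufa4l2. These genes took part in the clustering and the cells of a library share 1 preparation, so the values describe the clusters only.

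**Figure D3:**
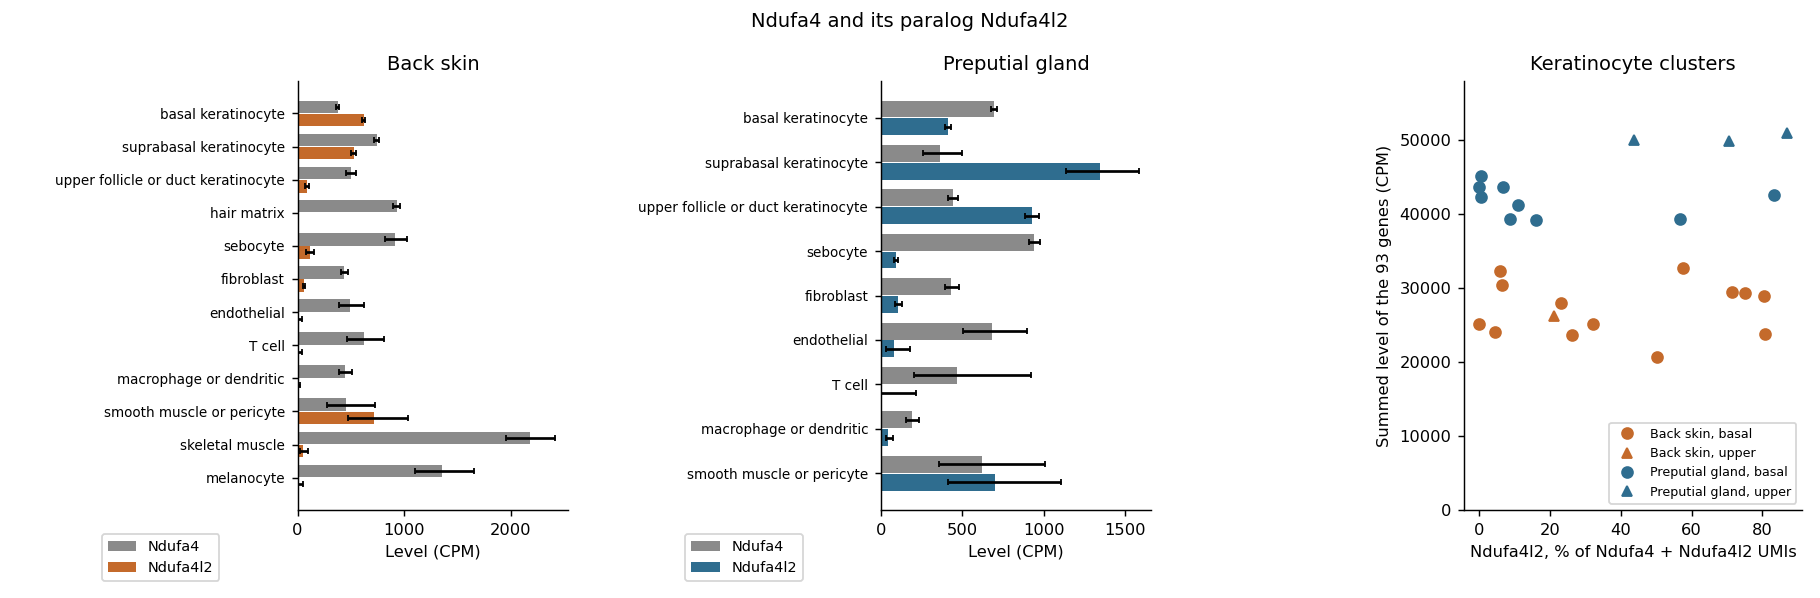
Level of Ndufa4 (grey) and Ndufa4l2 (colour) in CPM by cell class in back skin and preputial gland, with exact 95% Poisson intervals, and, on the right, the share of Ndufa4l2 in the UMIs of the pair (%) against the summed level of the 93 genes (CPM) in clusters named basal or upper keratinocyte. Ndufa4l2 is at or above Ndufa4 in basal skin cells and in PG upper keratinocytes. Among PG clusters named basal, the sum is 43659 CPM at 0% and 42557 CPM at 83.4%, while the upper cluster at 87.0% has 50981 CPM. Among skin clusters named basal, it is 25101 CPM at 0%, 28953 CPM at 80.4% and 23829 CPM at 80.8%.

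Basal keratinocytes, the most numerous class of both libraries, were used for the comparison of tissues. The 93 genes together were 1.57-fold higher in PG (42320.5 against 26896 CPM, log2 ratio 0.65 [0.65, 0.66]). Of 82 genes measured 68 had a log2 ratio above 0, 44 were above 1.5-fold and 2 under 0.6-fold, where 27.4% of all genes tested were above and 18.4% under. The median was 0.70 for the 82 genes and 0.08 for all genes. The classes did not share 1 shift. The summed log2 ratio of PG over skin was 0.85 in upper follicle or duct keratinocytes, 0.39 in sebocyte-like cells, 0.21 in fibroblasts, 0.06 in macrophages or dendritic cells and 0.05 [−0.03, 0.14] in endothelial cells, which among these 6 classes was largest in the keratinocytes. Of the other 3 classes in both libraries, suprabasal keratinocytes had 43634 CPM in PG and 23264 CPM in skin and T cells 34729 and 25517 CPM. Smooth muscle or pericyte-like cells went the other way, at 34495 CPM [32262, 36842] in PG and 39715 CPM [37767, 41737] in skin, on 17 and 19 cells.

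Complex II differed most between the tissues in basal cells, with all 4 genes above 1.5-fold. Sdhd, a membrane anchor, had 167 against 40.4 CPM (log2 ratio 2.05 [1.89, 2.22]), Sdha 154 against 44.4 CPM (1.80), Sdhc 131 against 49.6 CPM (1.41) and Sdhb 180 against 93.5 CPM (0.95). The 20 complex I genes that passed included all 7 core subunits, with a median log2 ratio of 1.22. In complex III they were Uqcrfs1, the Rieske iron-sulfur protein (316 against 69.0 CPM, 2.19 [2.07, 2.32]), Uqcrc2 and Uqcrc1. The largest ratios were those of Atp5g3 (1997 against 367 CPM, 2.44 [2.39, 2.49]) and Cox6a1 (900 against 169 CPM, 2.41 [2.34, 2.49]), among 9 of 17 genes of complex V and 7 of 13 of complex IV. Of 4 assembly factors Ndufaf4 passed. Atp5k, subunit e of the ATP synthase, was lower in PG (120 against 295 CPM, −1.30 [−1.42, −1.18]), as was the assembly factor Ndufaf2 (31.2 against 54.0 CPM, −0.79). Ndufs5 (218 against 359 CPM, −0.72) and Ndufa4l2 (413 against 621 CPM, −0.59) came next and were not past 0.6-fold.

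Several genes differed the same way in 6 classes of unlike function, going by the ratios alone. Over 6 classes present in both libraries (basal and upper keratinocytes, sebocyte-like cells, fibroblasts, endothelial cells, and macrophages or dendritic cells), 80 of the 93 genes could be measured. Of these 9, or 11.2%, were above 1.5-fold in PG in all 6, against 4.26% of the 2911 genes so measured. The median log2 ratios were 2.15 for Cox6a1 (range 1.18 to 2.65), 2.05 for Atp5g3 (1.86 to 3.01), 1.74 for Uqcrfs1, 1.61 for Ndufa6, 1.47 for Ndufs7, 1.36 for Cox5b, 1.21 for Ndufs3, 0.96 for Ndufv3 and 0.92 for Atp5g2. In endothelial cells some of these ratios rested on few UMIs, with intervals that include 0. In PG against skin these were Ndufv3 (6 against 6 UMIs, [−0.87, 2.94]), Ndufs3 (9 against 8, [−0.34, 2.78]) and Uqcrfs1 (11 against 13, [−0.51, 2.07]). The endothelial intervals of the other genes above 1.5-fold lay above 0. Atp5k was the 1 gene under 0.6-fold in all 6 (median −1.90), against 1.99% of all genes. The mt- genes, which are cut from common precursor transcripts, also differed from each other between the libraries: in basal cells mt-Nd4 had a log2 ratio of −0.59 and mt-Atp8 one of 3.91 (890 against 59.1 CPM), with mt-Nd4l, which is known to share its mature transcript with mt-Nd4, at 3.74. For Cox6a1, Atp5g3, mt-Atp8, mt-Nd4l and any other single gene, tissue and library, with the chemistry that the barcode lists leave unclear, cannot be told apart.

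**Figure D4:**
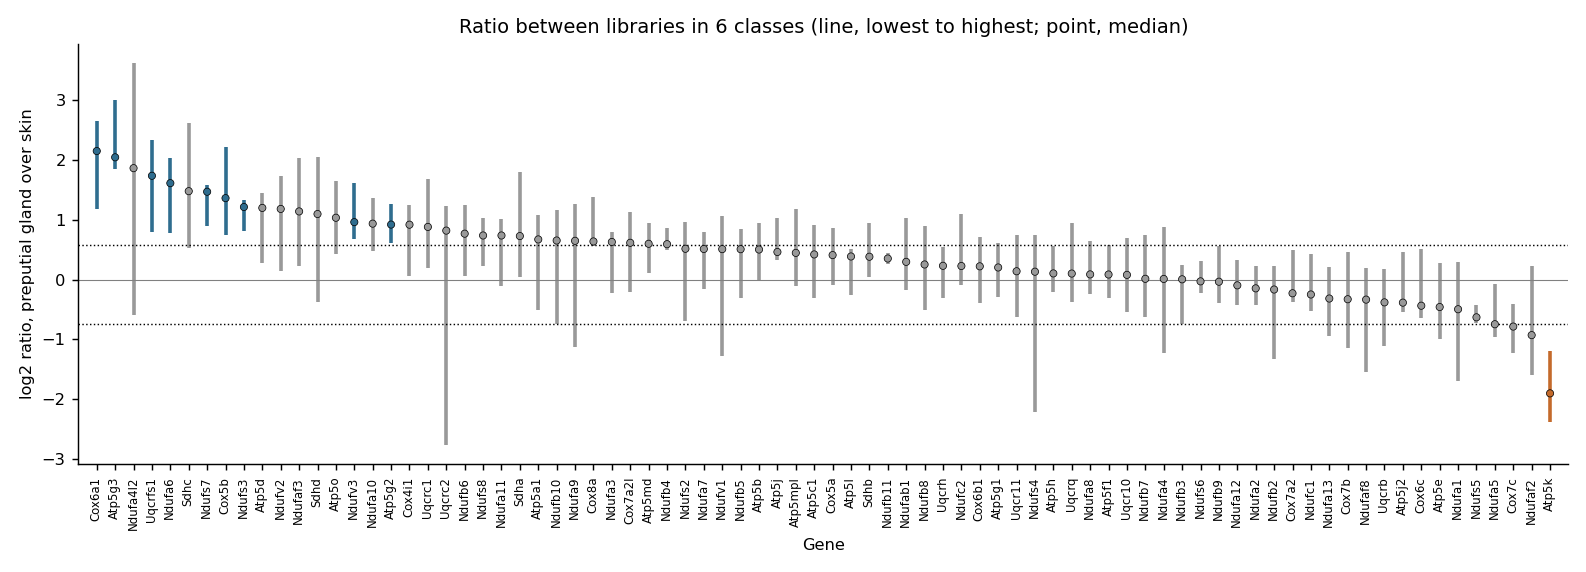
Log2 ratio of CPM, PG over skin (vertical axis), for each of 80 genes (horizontal axis) in 6 cell classes. Lines run from the lowest to the highest class, points are medians, and dotted lines mark 1.5-fold and 0.6-fold. The 9 blue genes lie above 1.5-fold in all 6 classes and the orange gene, Atp5k, under 0.6-fold in all 6.

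Subunit c of the ATP synthase, which forms the membrane rotor, is encoded by 3 genes whose mature proteins are the same, so the choice of gene can be read only in RNA. In skin basal keratinocytes Atp5g1, Atp5g2 and Atp5g3 supplied 40.1%, 35.9% and 24.0% of the UMIs of the 3 genes. In PG basal keratinocytes they supplied 19.2%, 31.5% and 49.3%. Atp5g3 was the largest in PG basal and suprabasal keratinocytes, sebocyte-like cells (51.1%), fibroblasts (48.7%), endothelial cells (48.8%) and macrophages or dendritic cells (43.6%), and in skin it lay between 15.1% and 28.1% in the classes of the plot of these shares. Atp5g1 and Atp5g3 were both higher in sebocyte-like than basal cells. Atp5g1 had 1166 against 613 CPM in skin and 1761 against 779 CPM in PG, and Atp5g3 732 against 367 CPM and 3226 against 1997 CPM, while Atp5g2 in PG had 1332 against 1276 CPM. Atp5g1 reached 3337 CPM and 62.0% [58.7, 65.2] in skeletal muscle-like cells. In PG the level of Atp5g1 was 1327 CPM in early, 1759.7 CPM in intermediate and 1953 CPM in late sebocyte-like cells.

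**Figure D5:**
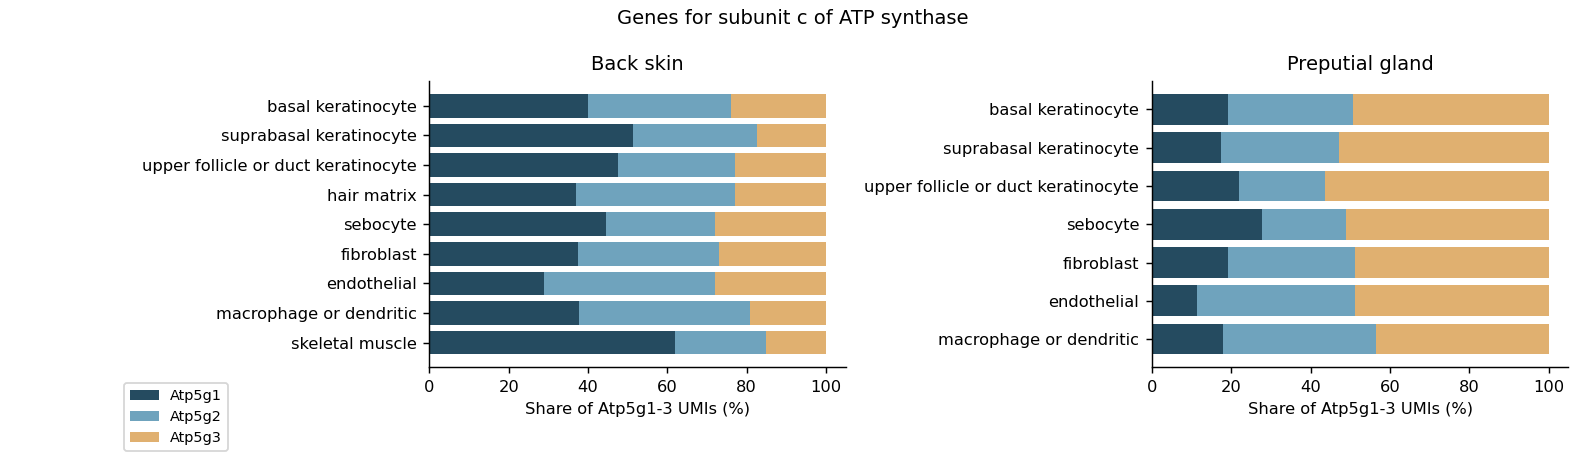
Share of Atp5g1, Atp5g2 and Atp5g3 in the UMIs of the 3 genes (horizontal axis, %) by cell class. Atp5g3 takes 49.3% in PG and 24.0% in skin basal keratinocytes, and Atp5g1 takes 62.0% in skeletal muscle-like cells.

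The promoters of these 3 genes and of Cox6a1 are given below with motifs of known regulators. Atp5g3 and Cox6a1 had the largest ratios between the tissues in basal cells and Atp5g1 the largest in PG sebocyte-like cells, and Atp5g2 is shown as the other gene for the same protein. Sequences are from RefSeq for GRCm38.p6, run from 250 bases before to 50 bases after the gene's start, and read 5′ to 3′ on the gene's strand. They lie at chr11:96075582-96075881 on the minus strand, chr15:102670998-102671297 on the minus strand, chr2:73911277-73911576 on the minus strand and chr5:115348909-115349208 on the minus strand. Capitals mark matches on either strand to the motif of NRF1 (GCGC, any 2 bases, GCGC) or of the estrogen-related receptors (ERR, TCAAGGTCA), factors known to act on respiratory genes.
Atp5g1: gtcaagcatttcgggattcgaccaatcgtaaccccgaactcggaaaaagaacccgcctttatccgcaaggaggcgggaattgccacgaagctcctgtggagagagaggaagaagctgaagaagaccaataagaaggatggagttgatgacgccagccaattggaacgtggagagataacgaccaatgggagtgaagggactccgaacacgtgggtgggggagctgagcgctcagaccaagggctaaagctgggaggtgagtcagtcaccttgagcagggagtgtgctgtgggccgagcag
Atp5g2: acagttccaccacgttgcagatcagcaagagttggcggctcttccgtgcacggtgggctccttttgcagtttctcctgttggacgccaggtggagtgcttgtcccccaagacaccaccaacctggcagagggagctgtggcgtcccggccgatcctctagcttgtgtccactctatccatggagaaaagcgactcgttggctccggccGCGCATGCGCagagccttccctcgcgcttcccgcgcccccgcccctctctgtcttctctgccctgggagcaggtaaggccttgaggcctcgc
Atp5g3: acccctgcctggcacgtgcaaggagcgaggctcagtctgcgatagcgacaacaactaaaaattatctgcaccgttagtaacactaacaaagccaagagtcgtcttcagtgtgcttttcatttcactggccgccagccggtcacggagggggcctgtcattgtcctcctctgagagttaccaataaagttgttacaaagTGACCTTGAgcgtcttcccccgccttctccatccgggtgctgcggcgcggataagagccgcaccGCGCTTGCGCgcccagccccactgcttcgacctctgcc
Cox6a1: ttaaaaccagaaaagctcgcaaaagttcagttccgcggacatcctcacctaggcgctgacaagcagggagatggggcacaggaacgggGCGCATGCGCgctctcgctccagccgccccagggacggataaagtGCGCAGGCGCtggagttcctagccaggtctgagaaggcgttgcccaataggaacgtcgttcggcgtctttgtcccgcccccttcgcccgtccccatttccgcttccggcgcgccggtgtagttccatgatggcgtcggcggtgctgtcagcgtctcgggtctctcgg
Atp5g1 has no match, Atp5g2 has 1 to NRF1, Atp5g3 has 1 to each and Cox6a1 has 2 to NRF1. None of the 4 motifs searched contains another, and both strands were read.

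Over the set, 75 of the 93 genes matched the RefSeq table, with 80 promoters. The NRF1 letters were in 22 of them (27.5%), against 6.23% of all 32851 promoters. The motif of GABP (ACCGGAAG), another known activator of these genes, was in 8 (10%), against 2.30%, and the ERR letters in 2 (2.5%), against 0.423%. The motif of MEF2 (CTA, then TTTT, then TAG), a muscle factor, was in none, against 0.110%. The median GC content was 58.0% in the 80 promoters and 52.7% in all, and its part in the NRF1 share was not tested. These matches describe letters and not sites.

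Neighbouring pathways were read from lists that hold none of the 93 genes. Genes of the citric acid cycle were higher with the chain in sebocyte-like cells: their sum had a log2 ratio to basal cells of 0.51 in PG, with 5 of 13 genes above 1.5-fold and citrate synthase (Cs) first at 238 against 98.9 CPM (1.27), and of 0.77 in skin, with 9 of 13 above 1.5-fold and Suclg1 first (152 against 56.8 CPM). Mitochondrial ribosomal proteins had summed log2 ratios of 0.37 in PG, with 22 of 78 genes above 1.5-fold, and 0.57 in skin, with 35 of 70. Of all genes tested in these sebocyte comparisons, 18.1% in PG and 26.6% in skin were above 1.5-fold. The list of cytosolic ribosomal proteins lay at −0.24 and −0.14. It was taken by symbol and also holds genes such as Rps6ka1 and Rps19bp1, which are not ribosomal proteins. Cytochrome c (Cycs) and the ADP/ATP carrier Slc25a5 had the highest ratios to basal cells among the carriers in both tissues. Slc25a5 had 1104 against 633 CPM in PG and 648 against 273 CPM in skin. Muscle-like cells used Slc25a4 instead, at 5911 CPM against 158 CPM in basal cells, with Slc25a5 at 31.0 against 273 CPM.

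Glycolysis genes differed in direction from the chain in PG sebocyte-like and in hair matrix-like cells but not in every comparison. Their sum had a log2 ratio of −0.26 in PG sebocyte-like cells, with Pfkl (23.6 against 57.6 CPM) and Pfkp (34.9 against 80.3 CPM) under 0.6-fold and none of 14 above 1.5-fold. Of all genes tested there, 16.4% were under and 18.1% above. In skin sebocyte-like cells the sum was at 0.26 while the median gene was at −0.13, and Ldhb alone had 437 against 31.3 CPM. In hair matrix-like cells the sum was at −0.89 and 6 of 13 genes were under 0.6-fold, against 16.1% of all genes tested. Pfkp was at 6.63 against 119 CPM and Aldoa at 102 against 367 CPM. Between the tissues, basal keratinocytes of PG were higher in both pathways, at 0.91 for glycolysis and 1.20 for the citric acid cycle. In the latter 12 of 13 genes were above 1.5-fold, against 27.4% of all genes tested. The uncoupling protein gene Ucp2 had 1234 CPM in PG and 193 CPM in skin basal cells, and was lower than basal in PG sebocyte-like cells (779 CPM) and hair matrix-like cells (60.6 CPM). In skin sebocyte-like cells it was higher than basal, at 257 CPM (log2 ratio 0.41 [0.08, 0.73]). The coactivator Ppargc1a, known to raise these genes, had 0 UMIs in sebocyte-like cells of both tissues and 1.28 and 1.16 CPM in skin and PG basal cells. The skin sebocyte-like class held 322527 UMIs of all genes, too few to tell its 0 from the basal level. Other regulators were present. In PG sebocyte-like against basal cells Esrra had 43.4 against 35.7 CPM (log2 ratio 0.28 [−0.04, 0.60]) and Tfam 53.2 against 46.6 CPM (0.19 [−0.09, 0.47]), with intervals that include 0. Ppargc1b had 21.4 against 31.4 CPM (−0.55 [−0.97, −0.14]) and Yy1 64.5 against 87.0 CPM (−0.43 [−0.67, −0.19]).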

How the data were processed

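Single-cell RNA of back skin and preputial gland (PG) of pooled C57BL/6 mice was measured in 1 library per tissue, and samples were grouped by the tissue in their labels. For each library the authors deposited raw counts of UMIs per gene and barcode for the whole barcode list, written by Cell Ranger 4 according to the file header. The submitters' processing notes name the build mm10, and the annotation release is not given in the sources used here. Nothing had been normalized or filtered. Reads that fit more than 1 listed gene are not counted by this tool, so genes with near-identical listed copies are uncertain. Reads shared with unlisted copies, such as processed pseudogenes, may be counted for the listed gene, and their part was not tested.

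From these counts, barcodes were kept from 500 genes and 1000 UMIs upward where mt- genes held 10% of UMIs or less. A marker counted in a cell where its share of UMIs was at least 0.5 of its share in free RNA (barcodes with at most 50 UMIs). A cell was assigned to the class with at least 3 counted markers when no other class reached more than 0.5 of that number, and 3 sebocyte markers took precedence. Cells with markers of 2 lineages (4.61% of skin, 4.83% of PG cells) were left out, no doublet caller was run, and classes under 10 cells are not shown. The gating rule was set after the matrices were examined. UMIs were summed per class and given as CPM with exact 95% intervals, using Python 3.11.15, numpy 2.4.6, scipy 1.17.1 and pandas 2.3.3. Clusters were made with scanpy 1.11.5 and the Leiden method (leidenalg 0.10.2, resolution 1.5). The limits given for a 0 of Cox6a2 are the shares that 3 counts would make, and other zeros are given without a limit. The calculation of ratios and the gate were tested on simulated data.

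A gene was counted as higher above a ratio of 1.5 and lower under 0.6, among genes with a mean of at least 20 CPM. Named genes are all isoform groups, the highest gene of each complex (in complex V the 3 highest) and the 4 highest and 4 lowest ratios of each of the 4 main comparisons. From the other lists they are among the 2 highest and lowest. The remaining names, such as Cox8a and those given where few genes passed, were chosen after their values were seen. The 93 genes, the lists and the comparisons were chosen with earlier results of these data known. There were 2 libraries and no replicates, so nothing was tested, and depth limits classes of few cells.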

Additional observations from a re-analysis of the deposited data

Results flagged for a closer look

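Values outside the main measurement were above the limit that a count of 0 allows in these cases. Ndufb1-ps, left out for its symbol, had 388 CPM over all skin cells and 137 CPM over all PG cells. The free RNA of skin held muscle forms of complex IV, at 94.5 CPM for Cox6a2, 63.3 CPM for Cox8b and 18.7 CPM for Cox7a1. Barcodes with 10 to 20% mt- UMIs, removed from all comparisons, held the 93 genes at 16634.5 CPM in skin (212 barcodes) and 36216 CPM in PG (354 barcodes). Uqcrh differed between tissues in the direction of sebocyte-like over basal cells, with a log2 ratio of 0.29 in skin and −0.16 in PG. That difference was not tested.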

How the results depend on the processing

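Settings are given as the summed log2 ratio of the 93 genes. No alternative changed a direction. For PG sebocyte-like over basal cells (0.44) the value was 0.41 with limits of 1000 genes and 2000 UMIs, 0.43 at 5% and 0.43 at 20% mt- UMIs, 0.33 without mt-, Rpl and Rps UMIs, 0.47 with 1 more marker and 0.46 with Leiden clusters. For skin sebocyte-like over basal cells (0.70) it was 0.65 at 5% mt-, 0.67 without mt-, Rpl and Rps, 1.01 with 1 more marker and 0.83 with Leiden clusters. For hair matrix-like over basal cells (0.42) it was 0.44 with the higher limits, 0.45 at 5% mt-, 0.34 as a mean over cells, 0.39 with 1 more marker and 0.39 with Leiden clusters. For PG over skin basal cells (0.65) it was 0.67 with the higher limits, 0.67 at 5% and 0.64 at 20% mt-, 0.77 without mt-, Rpl and Rps, 0.64 as a mean over cells and 0.62 with Leiden clusters. An alternative chosen after seeing the data, a denominator without genes over 1% of UMIs, gave 0.46, 0.67, 0.38 and 0.59 in the same order. The other 11 values stayed within the counting interval of the main one. Across the planned settings the share of Ndufa4l2 in skin basal keratinocytes ranged from 58.4% to 64.7%, and that of Cox6a2 in muscle-like cells from 98.0% to 99.1%. In hair matrix-like cells the share of Ndufa4l2 ranged from 0.30% to 1.14%, the highest with Leiden clusters.

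No paired analysis was possible because each tissue has 1 library. For the same reason no replicate was left out. The intervals cover counting error only, and the skin sebocyte-like class, with 60 cells, is the one that moved most between gates.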
